A study of Homo sapiens with 12 samples.

Results

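The 9 genes described here, GPX2, SRXN1, TXNRD1, GCLC, GCLM, NQO1, SLC7A11, HMOX1 and TRIM16L, are genes of the antioxidant response, most of them textbook targets of the transcription factor NRF2. They were taken as the rows with these symbols in the deposited expression table, 9 of 15822 loci. Of these, 7 were chosen by their place in the NRF2 pathway with earlier results of the same libraries known, and GPX2 and TRIM16L were selected on their measured levels under CITCO, a pattern that DMSO libraries enter as well. Every difference of these 2 genes that involves a CITCO or DMSO library is therefore given as a description with no test, and 7 genes were tested there. All 9 passed the filter on low values (at least 1 CPM in at least 2 libraries), NQO1 only through its KO libraries.

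The cells were HepaRG, an established human liver tumour line that can differentiate towards hepatocytes and bile duct cells. Knockout cells (KO, labelled hCAR-KO), which lack the human constitutive androstane receptor (CAR), and wild-type cells (WT) were each given phenobarbital (PB), CITCO or the solvent DMSO. That makes 6 groups (KO PB, KO CITCO, KO DMSO, WT PB, WT CITCO and WT DMSO) with 2 RNA sequencing libraries each, 12 in all. The sources used here give no dose, exposure time, culture stage, method of knockout or number of KO clones. Nothing says that the duplicates were separate cultures, so a p-value covers the spread between the sequenced libraries alone, and that spread may be technical.

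NRF2, the product of NFE2L2, is kept low by KEAP1, an adaptor that hands it to a ubiquitin ligase. When oxidants or electrophiles modify KEAP1, NRF2 escapes, pairs with a small MAF protein and binds antioxidant response elements near genes that make glutathione, reduce thioredoxin and peroxiredoxins, remove quinones and break down heme. CAR is a nuclear receptor of hepatocytes that turns on drug-metabolising genes; CITCO is a synthetic ligand of human CAR, and PB activates CAR without binding to it as an agonist.

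The bases upstream of a start site are shown for GPX2, GCLM and TXNRD1, where the core letters of the antioxidant response element were found, and for SRXN1, where they were not found, because its CITCO response passed the test of the difference between genotypes. Each sequence holds the 250 bases before a start site in RefSeq on build GRCh38.p14, the start of the gene except for the second TXNRD1 start, which lies within it, 5′ to 3′ on the gene's strand, and capitals mark the match. The windows are chr14:64942746-64942995 (minus strand) for GPX2, chr20:653201-653450 (minus) for SRXN1, chr1:93909431-93909680 (minus) for GCLM, and chr12:104215529-104215778 and chr12:104286782-104287031 (plus) for 2 starts of TXNRD1.
GPX2: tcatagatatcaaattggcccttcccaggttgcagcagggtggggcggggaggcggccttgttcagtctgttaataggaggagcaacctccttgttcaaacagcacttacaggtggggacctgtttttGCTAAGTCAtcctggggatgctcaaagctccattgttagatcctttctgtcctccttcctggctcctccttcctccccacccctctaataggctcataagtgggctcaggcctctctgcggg
SRXN1: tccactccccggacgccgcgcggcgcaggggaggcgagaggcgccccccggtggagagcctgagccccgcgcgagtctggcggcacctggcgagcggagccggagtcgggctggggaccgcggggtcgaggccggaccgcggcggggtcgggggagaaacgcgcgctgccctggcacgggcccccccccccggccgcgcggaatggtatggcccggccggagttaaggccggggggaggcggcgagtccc
GCLM: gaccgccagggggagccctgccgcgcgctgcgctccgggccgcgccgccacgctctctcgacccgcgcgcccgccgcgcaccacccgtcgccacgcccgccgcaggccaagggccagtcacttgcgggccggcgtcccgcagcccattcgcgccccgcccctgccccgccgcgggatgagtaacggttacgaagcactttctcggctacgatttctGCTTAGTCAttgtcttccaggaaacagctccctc
TXNRD1, first start: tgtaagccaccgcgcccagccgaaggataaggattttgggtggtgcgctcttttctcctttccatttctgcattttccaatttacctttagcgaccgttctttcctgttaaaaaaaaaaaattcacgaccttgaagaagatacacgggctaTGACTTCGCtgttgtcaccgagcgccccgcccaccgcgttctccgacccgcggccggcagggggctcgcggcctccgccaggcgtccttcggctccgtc
TXNRD1, second start: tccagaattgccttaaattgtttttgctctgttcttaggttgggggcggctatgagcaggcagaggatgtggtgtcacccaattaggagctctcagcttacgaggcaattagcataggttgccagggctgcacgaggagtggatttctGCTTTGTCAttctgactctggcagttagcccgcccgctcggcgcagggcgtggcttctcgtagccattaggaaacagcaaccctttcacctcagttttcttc

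The letters searched were TGACNNNGC on the strand shown and GCNNNGTCA, the same element read on the other strand; the first 4 letters are shared with the AP-1 motif TGACTCA. RefSeq windows were matched for 6 of the 9 genes, and 3 of these 6 held the letters. GPX2 had them 122 to 114 bases before its start (GCTAAGTCA), GCLM 34 to 26 bases before (GCTTAGTCA), and TXNRD1 99 to 91 bases before the first start (TGACTTCGC) and 102 to 94 before the second (GCTTTGTCA). GCLC, NQO1 and SRXN1 had none in this window. Of all 35116 windows of this length, 10.9% held the letters, and of the 9955 genes of the table with a window, 15.9%. The match is a description of the letters, not of binding.

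Levels are the authors' CPM, reads scaled to a library size of 1000000 that was adjusted by the authors' normalization, and differences were taken between log2(CPM + 0.5) values, so changes of weakly expressed genes are understated. The libraries held 49258123 to 66453415 reads over the table's loci. NR1I3, the gene of CAR, was transcribed at 9.63 to 16.2 CPM in KO libraries and 9.33 to 15.5 CPM in WT libraries, and KO DMSO did not pass the test against WT DMSO (log2 -0.12, limma adjusted p = 0.273; 0.14 with libraries scaled to their totals). Where the gene was edited is not stated, so this level does not check the genotype. As controls of the compounds, CYP2B6, the usual marker of CAR activity, was at 17.4 and 16.1 CPM under CITCO in KO cells, against 10.2 and 8.95 CPM under DMSO, and at 435 and 424 CPM under CITCO in WT cells, against 35.2 and 37.1 CPM under DMSO. Under PB it was at 230 and 226 CPM in KO cells and 442 and 447 CPM in WT cells. Its CITCO response was smaller in KO than in WT cells (difference of log2 responses -2.78, adjusted p = 3.52e-13). On the log2 scale its PB response was larger in KO cells (4.50 in KO and 3.60 in WT cells, difference 0.90, limma adjusted p = 6.65e-06). In amount it was smaller in KO cells, from a mean of 9.59 to 228 CPM, against 36.1 to 445 CPM in WT cells. CYP1A1, a target of the aryl hydrocarbon receptor, rose with CITCO in KO (4.30) and in WT cells (2.58). Summed markers of hepatocytes (9 of 10 listed with a row, none at 0) stood at 60620 to 71833 CPM in KO and 141452 to 162221 CPM in WT libraries. Under DMSO 6 of the 9 were called lower and 2 higher in KO cells, where 29.4% of all loci tested were called lower and 28.3% higher. ALB was at 43520 CPM in KO DMSO and 127568 CPM in WT DMSO cells, while CYP3A4 (1090 against 237 CPM) and FGB (3471 against 2966 CPM) were higher in KO. Biliary markers (4 of 8) summed to 104 to 121 CPM in KO and 377 to 467 CPM in WT, mainly KRT19 (83.9 CPM in KO DMSO and 407 CPM in WT DMSO cells). Of these 4, 2 were called lower and 2, SPP1 and KRT7, higher in KO DMSO, against the same shares of all loci (29.4% and 28.3%). Proliferation markers (4 of 4) summed to 362 to 461 CPM in KO and 131 to 183 CPM in WT libraries. Mesenchymal markers (3 of 7) summed to 106 to 118 CPM in KO and 82.2 to 89.1 CPM in WT, and endothelial markers (2 of 4) to 63.4 to 89.9 CPM in KO and 81.8 to 114 CPM in WT libraries; macrophage markers were not analysed here. Proliferation markers also moved with the compounds: 4 of 4 were called higher in WT CITCO, 3 in KO CITCO, 3 in KO PB and 0 in WT PB. None of them was called lower. Of all loci 1.18%, 0.386%, 3.87% and 2.66% were called higher in that order. The part of these shifts in the drug responses and in the KO against WT differences below was not tested.

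GPX2, a selenium-containing glutathione peroxidase best known from the epithelium of the gut, was higher in every KO library than in any WT library and stood higher under PB than under DMSO in both genotypes. In KO cells it had 108 and 108 CPM under PB, 54.8 and 52.6 CPM under CITCO, and 45.2 and 44.0 CPM under DMSO. In WT cells it had 28.5 and 30.1 CPM under PB, 26.4 and 24.8 CPM under CITCO, and 7.36 and 7.95 CPM under DMSO. No 2 groups overlapped, and the order within each genotype was DMSO, then CITCO, then PB. With PB, described only, GPX2 was higher by 1.27 on the log2 scale in KO cells and by 1.87 in WT cells (SE 0.063 for both), a difference of log2 responses of -0.60. In CPM the PB increment was 63.4 in KO and 21.7 in WT cells, so which genotype gained more depends on whether the change is taken as a ratio or as an amount. With CITCO, described only, GPX2 was higher by 0.27 in KO cells and 1.68 in WT cells on the log2 scale, an increment of 9.16 CPM in KO and 17.96 CPM in WT cells.

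Between genotypes, GPX2 was 5.82-fold higher by mean CPM in KO DMSO than in WT DMSO cells, 44.6 ± 0.845 against 7.65 ± 0.415 CPM (SD, n = 2 each; log2 2.47, SE 0.063, no test). Under PB it stood at 108 ± 0.325 CPM in KO and 29.3 ± 1.16 CPM in WT cells (log2 1.86, limma adjusted p = 2.37e-14), and under CITCO at 53.7 ± 1.55 CPM in KO and 25.6 ± 1.17 CPM in WT cells (a ratio of 2.098, no test). In bulk RNA, fewer cells of a type and less RNA per cell cannot be told apart. Of the other glutathione peroxidases, GPX1, GPX3, GPX4 and GPX8 had a row, and in the 4 drug responses GPX3, the plasma form, was the exception to an uncalled result. GPX3 rose with PB in KO cells, to 154 and 155 CPM against 136 and 126 CPM under DMSO (log2 0.24, adjusted p = 0.00264; 0.0609 without KO DMSO 2 and 0.00222 to 0.0682 over its alternatives).

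**Figure D1:**
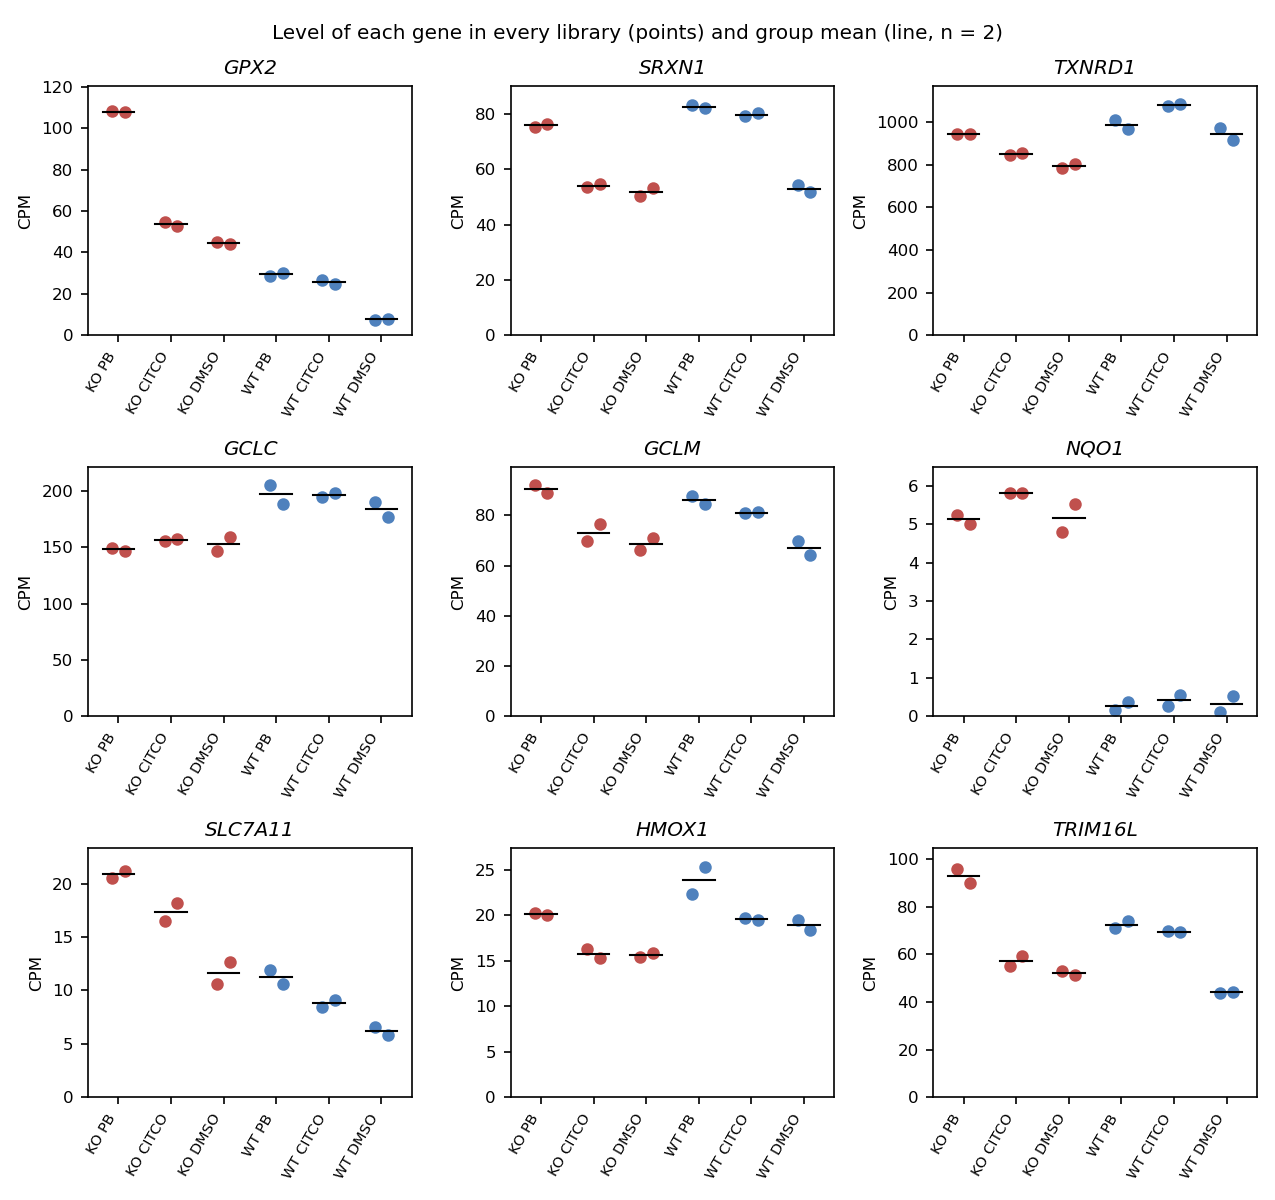
Level of each gene in every library, in CPM on a linear axis from 0; points are libraries, horizontal lines group means (n = 2), red KO and blue WT. GPX2 is highest in KO PB (108 and 108 CPM) and lowest in WT DMSO (7.36 and 7.95 CPM), SRXN1 under CITCO stays near its DMSO level in KO and not in WT cells, and NQO1 is under 1 CPM in every WT library.

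SRXN1 encodes sulfiredoxin, which repairs peroxiredoxins that peroxide has over-oxidised. It had 75.5 and 76.3 CPM in KO PB, 53.7 and 54.6 CPM in KO CITCO, and 50.3 and 53.4 CPM in KO DMSO libraries. The WT libraries had 83.2 and 82.1 CPM under PB, 79.4 and 80.3 CPM under CITCO, and 54.3 and 51.8 CPM under DMSO. Under DMSO the genotypes overlapped, with both PB groups and WT CITCO well above, while KO CITCO lay just above KO DMSO. PB raised SRXN1 by 0.55 (log2, SE 0.050, adjusted p = 6.19e-07) in KO cells and by 0.64 (adjusted p = 8.60e-08) in WT cells, and the difference between these responses did not pass the test (-0.09, 95% interval -0.24 to 0.06, adjusted p = 0.776). CITCO raised it in WT cells (0.59, SE 0.050, adjusted p = 8.36e-07) and the KO difference was 0.06 (interval -0.04 to 0.17, adjusted p = 0.718). The CITCO response itself was smaller in KO than in WT cells (difference of log2 responses -0.52, interval -0.67 to -0.38, adjusted p = 0.00114), with an increment of 2.28 CPM in KO and 26.8 CPM in WT cells. Leaving out any 1 of the libraries compared kept this call, and a constant prior variance ended it (adjusted p = 0.0741, within 0.000913 to 0.0741 over the alternatives).

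TXNRD1 is the cytosolic selenoenzyme that keeps thioredoxin reduced. Its called drug responses were the smallest on the log2 scale among those of the 7 genes other than GPX2 and TRIM16L. Its levels were 946 and 943 CPM in KO PB, 847 and 855 CPM in KO CITCO and 788 and 804 CPM in KO DMSO libraries. WT cells had 1009 and 967 CPM under PB, 1078 and 1087 CPM under CITCO, and 974.7 and 917 CPM under DMSO. PB led in KO cells and CITCO in WT cells, where PB and DMSO overlapped. In KO cells PB raised it by 0.25 (SE 0.035, adjusted p = 0.000109), and the WT difference was 0.06 (adjusted p = 0.338). The difference between the PB responses, 0.18, missed the threshold (interval 0.08 to 0.29, adjusted p = 0.106), and passed it without WT PB 1 (0.0496) or WT DMSO 2 (0.0254; 0.0254 to 0.5 over the alternatives). With CITCO the KO difference was 0.10 (interval 0.02 to 0.17, adjusted p = 0.272), and in WT cells TXNRD1 rose by 0.20 (adjusted p = 0.0037). That WT call was lost without WT CITCO 1 (0.0562) or WT CITCO 2 (0.0679), in a fit of the compared libraries alone (0.102) and with a constant prior variance (0.167; 0.000771 to 0.167 over all alternatives), and the CITCO responses did not differ by the test (-0.10, adjusted p = 0.416).

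GCLM and GCLC are the modifier and catalytic subunits of glutamate-cysteine ligase, the enzyme of the rate-limiting step of glutathione synthesis, and responded unequally. GCLM had 92.1 and 88.9 CPM in KO PB, 69.6 and 76.4 CPM in KO CITCO, and 66.0 and 71.1 CPM in KO DMSO libraries. The WT values were 87.7 and 84.7 CPM under PB, 80.9 and 81.2 CPM under CITCO, and 69.8 and 64.4 CPM under DMSO. KO CITCO and KO DMSO overlapped, and in WT cells both compounds stood above DMSO. PB raised GCLM by 0.40 (log2, SE 0.057, adjusted p = 0.000142) in KO cells and by 0.36 (adjusted p = 0.000479) in WT cells. CITCO raised it in WT cells (0.27, adjusted p = 0.0147), with 0.09 in KO cells (interval -0.03 to 0.21, adjusted p = 0.609) and no called difference of the responses (-0.18, interval -0.35 to -0.01, adjusted p = 0.364). The WT CITCO call was lost without WT CITCO 1 (0.133), WT CITCO 2 (0.135) or WT DMSO 2 (0.0558), in a fit of the compared libraries alone (0.119) and with a constant prior variance (0.148; 0.00389 to 0.148 over the alternatives).

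GCLC lay at 149 and 147 CPM in KO PB, 155 and 157 CPM in KO CITCO, and 146 and 159 CPM in KO DMSO libraries. In WT libraries it lay at 205 and 188 CPM under PB, 194 and 198 CPM under CITCO, and 190 and 177 CPM under DMSO. At the deposited scaling every KO library was below every WT library, and the 2 KO DMSO libraries lay on either side of the other KO libraries. None of the drug differences of GCLC passed limma's test, with log2 -0.04 (PB) and 0.03 (CITCO) in KO cells and 0.10 for either compound in WT cells (adjusted p = 0.735, 0.883, 0.298 and 0.355 in that order; unadjusted p = 0.396, 0.509, 0.0627 and 0.072).

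SLC7A11 is the light chain of the cystine-glutamate exchanger, which brings in the cystine that glutathione synthesis needs. It had 20.5 and 21.2 CPM in KO PB, 16.5 and 18.2 CPM in KO CITCO, and 10.6 and 12.6 CPM in KO DMSO libraries. In WT cells the levels were 11.9 and 10.6 CPM under PB, 8.47 and 9.08 CPM under CITCO, and 6.60 and 5.83 CPM under DMSO. The groups of each genotype did not overlap and kept the order DMSO, CITCO, PB; KO DMSO and WT PB overlapped. PB raised SLC7A11 by 0.83 in KO (SE 0.104, adjusted p = 3.17e-05) and by 0.81 in WT cells (adjusted p = 5.05e-05). CITCO raised it by 0.56 in KO cells (adjusted p = 0.0098) and by 0.47 in WT cells (adjusted p = 0.0216), and neither difference of responses was called (PB 0.02, interval -0.29 to 0.33; CITCO 0.10, interval -0.21 to 0.41). Among the 7 genes tested under CITCO, SLC7A11 was the gene that rose in KO cells. Both CITCO calls were fragile: the KO call was lost without KO CITCO 1 (0.0612), KO CITCO 2 (0.238) or KO DMSO 1 (0.233) and with a constant prior variance (0.12), and the WT call in 7 of 14 alternatives, among them leaving out WT CITCO 1 (0.0983), WT CITCO 2 (0.209) or WT DMSO 2 (0.0627), with adjusted p of 0.00521 to 0.238 in KO and 0.0164 to 0.209 in WT cells over the alternatives.

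SLC3A2, the heavy chain that brings SLC7A11 to the cell surface, rose with PB in KO (0.45, adjusted p = 0.000136) and WT cells (0.37, adjusted p = 0.00114; 0.0794 in a fit of the compared libraries alone, 0.000104 to 0.0794 over the alternatives). With CITCO its differences were -0.04 in KO and 0.18 in WT cells (adjusted p = 0.888 and 0.166; the WT difference passed without WT DMSO 2, at 0.0163, within 0.0163 to 0.748). The antisense gene SLC7A11-AS1 had means of 0.521 to 1.399 CPM over the 6 groups; the strandedness of the libraries is not given in the sources used here, so reads of the 2 genes cannot be told apart where they overlap.

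HMOX1, heme oxygenase 1, breaks heme down to biliverdin, iron and carbon monoxide. Its levels were 20.3 and 19.98 CPM in KO PB, 16.3 and 15.2 CPM in KO CITCO, and 15.4 and 15.9 CPM in KO DMSO libraries. WT cells had 22.4 and 25.3 CPM under PB, 19.7 and 19.4 CPM under CITCO, and 19.5 and 18.3 CPM under DMSO. PB stood apart from DMSO in both genotypes, and CITCO overlapped with DMSO in both. PB raised HMOX1 by 0.35 in KO (SE 0.078, adjusted p = 0.00755) and by 0.32 in WT cells (adjusted p = 0.0162), and CITCO gave 0.01 in KO (interval -0.15 to 0.17) and 0.05 in WT cells (interval -0.12 to 0.21). The KO PB call was lost without KO PB 1 (0.0831), KO PB 2 (0.0624) or KO DMSO 1 (0.0734; 0.00529 to 0.0831 over the alternatives). The WT PB call was lost without WT PB 2 (0.165) or WT DMSO 2 (0.0834), in a fit of the compared libraries alone (0.195) and with edgeR on recovered reads (0.0666; 0.00949 to 0.195 over the alternatives).

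NQO1, a quinone reductase and a standard readout of NRF2 activity in many cell types, was nearly silent in WT cells. The KO libraries had 5.25 and 5.01 CPM under PB, 5.82 and 5.83 CPM under CITCO, and 4.80 and 5.54 CPM under DMSO, from 287 to 400 reads each. The WT libraries had 0.151 and 0.357 CPM under PB, 0.253 and 0.562 CPM under CITCO, and 0.112 and 0.524 CPM under DMSO. Those WT values rest on 9 and 20, 14 and 34, and 5 and 25 reads, so a drug response was not detectable there at this depth unless it was large. NQO1 was uncalled in all 4 responses, at log2 -0.01 (PB) and 0.16 (CITCO) in KO cells, and -0.08 and 0.18 in WT cells (intervals -0.47 to 0.46, -0.30 to 0.63, -0.55 to 0.38 and -0.29 to 0.64 in that order). By mean CPM it was 16.3-fold higher in KO DMSO than in WT DMSO cells (5.17 ± 0.522 against 0.318 ± 0.292 CPM, SD, n = 2 each). Since it passed the low filter only through the KO libraries, its log2 difference of 2.84 had to be in that direction and is given as a description with no test.

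TRIM16L, listed by RefSeq as a transcribed pseudogene on chromosome 17, is a near-copy of TRIM16, which is not analysed here; reads of such copies may be split between them, so its levels are uncertain. It had 96.0 and 90.2 CPM in KO PB, 55.3 and 59.3 CPM in KO CITCO, and 53.1 and 51.4 CPM in KO DMSO libraries. WT libraries had 71.0 and 74.0 CPM under PB, 69.7 and 69.4 CPM under CITCO, and 43.9 and 44.1 CPM under DMSO. In WT cells both compounds were far above DMSO and near each other, while in KO cells CITCO stood near DMSO. With PB, described only, TRIM16L was higher by 0.83 in KO and by 0.71 in WT cells (SE 0.053 for both), a difference of log2 responses of 0.11. With CITCO it was higher by 0.13 in KO and 0.65 in WT cells, an increment of 5.03 CPM in KO and 25.5 CPM in WT cells.

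The neighbour of TRIM16L in RefSeq is FBXW10, an F-box gene. FBXW10 had 7.52 and 6.98 CPM in KO PB, 2.73 and 2.81 CPM in KO CITCO, and 2.61 and 1.94 CPM in KO DMSO libraries. It had 8.23 and 8.39 CPM in WT PB, 4.59 and 6.48 CPM in WT CITCO, and 2.77 and 2.58 CPM in WT DMSO libraries. Under PB it rose in KO cells (1.49, adjusted p = 2.36e-06) and likewise in WT cells (1.47, adjusted p = 3.22e-06) and with CITCO in WT cells (0.91, adjusted p = 0.00211; 0.0692 without WT CITCO 2 and 0.000135 to 0.111 over the alternatives), with 0.25 in KO CITCO (adjusted p = 0.591). The CITCO responses of FBXW10 did not differ by the test (-0.66, interval -1.11 to -0.21, adjusted p = 0.215). CDRT1, chosen after its values were seen and given by RefSeq as another name of FBXW10B next to TRIM16, followed TRIM16L closely. Its means were 70.9, 44.8 and 41.3 CPM in KO cells and 72.6, 66.1 and 42.7 CPM in WT cells under PB, CITCO and DMSO. Reads shared between FBXW10 and its near-identical copy would enter both, which was not tested.

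**Figure D2:**
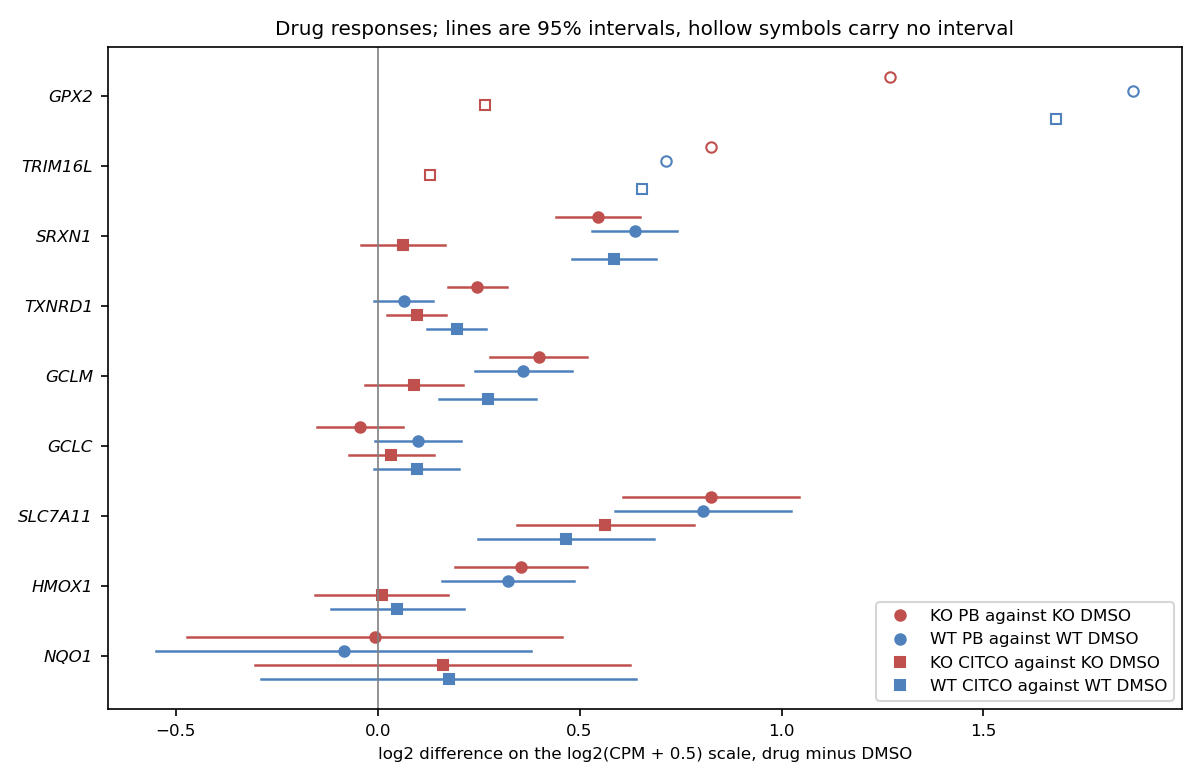
Drug response of each gene as the log2 difference from DMSO on the log2(CPM + 0.5) scale; circles are PB, squares CITCO, red KO, blue WT, lines 95% intervals, and hollow symbols the untested values of GPX2 and TRIM16L. The PB responses of KO and WT lie close together except for GPX2 (1.27 and 1.87) and TXNRD1 (0.25 and 0.06), while for SRXN1 the CITCO response is 0.06 in KO and 0.59 in WT cells.

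Counted over the 7 genes other than GPX2 and TRIM16L, PB raised 5 in KO cells (SRXN1, TXNRD1, GCLM, SLC7A11 and HMOX1), where 6.96% of all loci tested were called (3.87% higher and 3.09% lower), and 4 in WT cells (the same without TXNRD1), where 6.42% were called (2.66% higher and 3.76% lower). CITCO raised 1 of the 7 in KO cells (SLC7A11), against 0.811% of all loci called (0.386% higher and 0.424% lower), and 4 of 7 in WT cells (SRXN1, TXNRD1, GCLM and SLC7A11), against 2.2% called (1.18% higher and 1.02% lower). None fell in any response. The median log2 response of the 7 genes was 0.35 for PB and 0.09 for CITCO in KO cells, and 0.32 for PB and 0.20 for CITCO in WT cells, while the median of all loci tested was within 0.01 of 0 in each. With libraries scaled to their totals the calls over all loci were 480 higher and 708 lower for PB in KO cells (611 and 488 as deposited), 85 higher and 55 lower for CITCO in KO cells (61 and 67) and 250 higher and 100 lower for CITCO in WT cells (187 and 161). The PB and CITCO responses of a genotype share its DMSO libraries, and the doses are not given, so the compounds are set side by side and not compared. The WT CITCO count of 4 was 1 without WT CITCO 1 or WT CITCO 2 and 2 without WT DMSO 2, and the KO CITCO count of 1 was 0 without KO CITCO 1, KO CITCO 2 or KO DMSO 1.

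Whether a response differs between genotypes was tested directly. Of the 7 genes tested, 0 had a called difference of the PB responses by limma (1, TXNRD1, at an unadjusted p under 0.05, and no other tool was run there), with 1.01% of all loci called (0.798% higher and 0.209% lower in KO). Of the 7 genes tested, SRXN1 alone had a called difference of the CITCO responses, with 0.336% of all loci called (0.108% higher and 0.228% lower in KO). The untested differences of GPX2 and TRIM16L were -0.60 and 0.11 for PB and -1.41 and -0.52 for CITCO. For the CITCO responses the intervals of the other 6 genes ran from -0.35 to -0.01 for GCLM, -0.20 to 0.00 for TXNRD1, -0.21 to 0.09 for GCLC, -0.27 to 0.19 for HMOX1, -0.21 to 0.41 for SLC7A11 and -0.67 to 0.64 for NQO1, so a difference as large as that of SRXN1 lies outside the intervals of all but NQO1.

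**Figure D3:**
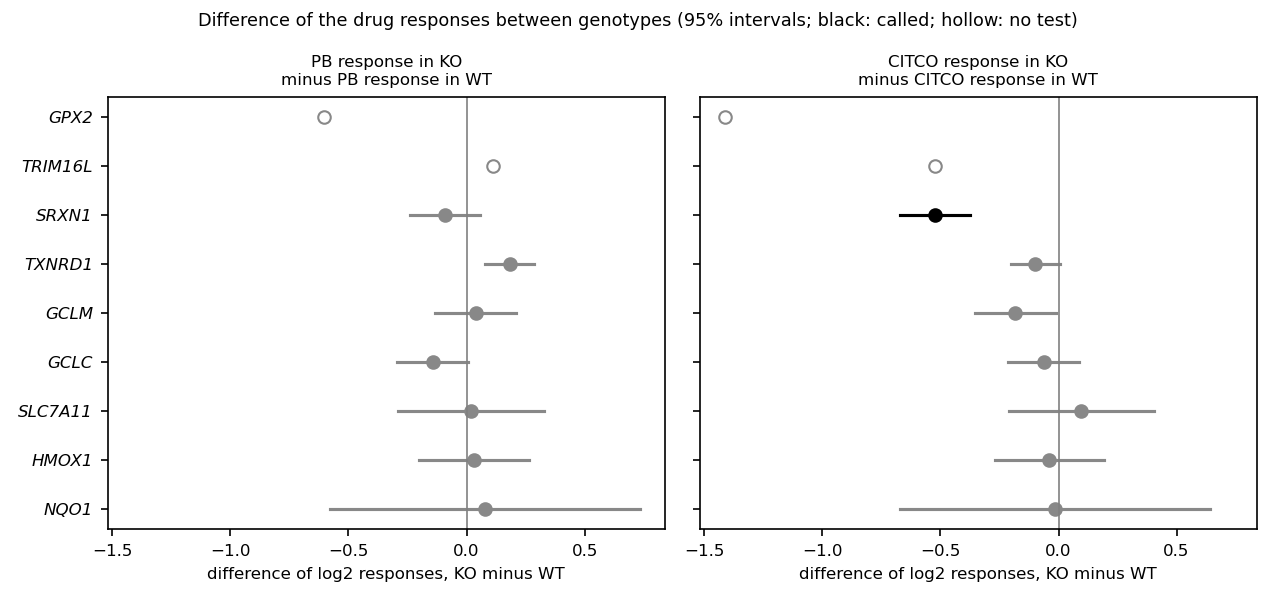
Difference of the log2 drug responses, KO minus WT, for PB (left panel) and CITCO (right panel); lines are 95% intervals, black marks a call, grey no call, and hollow symbols the untested values of GPX2 and TRIM16L. GPX2 stands at -0.60 for PB with no test, and SRXN1 at -0.52 for CITCO beside the described -1.41 of GPX2 and -0.52 of TRIM16L.

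The level in KO against WT cells split the genes, at the deposited scaling. NQO1, whose direction the filter fixes, is left out of these counts. Under DMSO, of the 6 genes tested, 1 was higher (SLC7A11) and 3 lower (TXNRD1, GCLC and HMOX1) in KO cells, where 57.7% of all loci tested were called (28.3% higher and 29.4% lower), so the count is near the background. SLC7A11 was higher by 0.85 (adjusted p = 1.44e-06) and TRIM16L, described only, by 0.25, while TXNRD1 stood at -0.25 (adjusted p = 7.11e-06), GCLC at -0.26 (adjusted p = 0.000201) and HMOX1 at -0.27 (adjusted p = 0.00717). GCLM (0.03) and SRXN1 (-0.03) were uncalled. Under PB, where GPX2 and TRIM16L (0.36, adjusted p = 1.30e-05) were tested too, 3 were higher and 3 lower of 8 (58.3% of all loci called, 29.4% higher and 28.9% lower), with SRXN1 (-0.12, adjusted p = 0.0423) called and TXNRD1 (-0.06) not. Under CITCO 1 was higher and 5 were lower of the 6 tested (59.0% of all loci called, 29.3% higher and 29.8% lower), with SRXN1 at -0.56 (adjusted p = 2.44e-08), TXNRD1 at -0.35 and GCLM at -0.15 (adjusted p = 0.0303).

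These genotype differences are relative to the deposited scaling, and scaling each library to its total moves the median locus towards KO by 0.25 under DMSO, 0.24 under PB and 0.24 under CITCO. The calls over all loci then split into 8308 higher and 2311 lower under DMSO (4462 and 4644 as deposited), 8167 and 2389 under PB (4646 and 4568) and 8109 and 2512 under CITCO (4622 and 4702). Under total scaling the DMSO differences were 0.23 for SRXN1 (adjusted p = 0.000592), 0.30 for GCLM (0.000247), 0.02 for TXNRD1 (0.658), 0.00 for GCLC (0.999) and -0.01 for HMOX1 (0.933). The call for every one of these genes, and the sign for SRXN1, TXNRD1 and GCLC, therefore depended on the scaling. With total scaling SRXN1 and GCLM were called higher in KO DMSO cells, and TXNRD1, GCLC and HMOX1 were uncalled. Under PB the total-scaled differences were 0.13 for SRXN1, 0.19 for TXNRD1, 0.32 for GCLM, -0.16 for GCLC and 0.01 for HMOX1 (the last uncalled). Under CITCO they were 0.10 for GCLM, -0.07 for GCLC and -0.06 for HMOX1 (these 3 uncalled). SRXN1 (-0.30, adjusted p = 3.95e-05) and TXNRD1 (-0.09, adjusted p = 0.019) stayed lower in KO CITCO cells. SLC7A11 stayed called higher in KO DMSO cells under it (1.10), and the described values of GPX2 (2.72), TRIM16L (0.51) and NQO1 stayed above 0. The HMOX1 call under DMSO was lost without WT DMSO 1 (adjusted p = 0.0546; 0.00664 to 0.933 over the alternatives), the SRXN1 call under PB was lost without any of the 4 libraries compared (0.0755 to 0.156), and the GCLM call under CITCO without KO CITCO 1 (0.314), WT CITCO 1 (0.0966) or WT CITCO 2 (0.109).

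Across the 12 libraries, after each genotype's mean was removed, Pearson's r among SRXN1, TXNRD1, GCLM, SLC7A11 and HMOX1 ran from 0.48 (TXNRD1 with HMOX1) to 0.96 (SRXN1 with GCLM). GPX2 had 0.74 with TXNRD1 to 0.98 with SRXN1, and TRIM16L 0.82 with HMOX1 to 0.98 with SRXN1. The r values of these 2 genes include the libraries on which they were chosen and are not independent of that choice. GCLC (0.12 with TRIM16L to 0.40 with SLC7A11 among the genes that responded, -0.07 with HMOX1) and NQO1 (-0.22 to 0.00) did not follow them. The libraries share treatments, so r over 12 libraries is a description. Of 12191 loci with a mean of at least 5 CPM in a group, those most like GPX2 by this measure were SULT1A1 (0.98), a sulfotransferase, CYP2B7P (0.98), a pseudogene of the CYP2B family, FTL (0.97), the ferritin light chain, HTATIP2 (0.97) and CES1 (0.97), a carboxylesterase. Those most like TRIM16L were CDRT1 (1.00), CYP2B6 (0.99), AKR1B10 (0.99), an aldo-keto reductase, CYP2A6 (0.99) and AKR1C1 (0.99).

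The regulators of the pathway moved little with the compounds. NFE2L2, which encodes NRF2 itself, had 60.7 and 59.9 CPM in KO PB, 60.1 and 61.8 CPM in KO CITCO, and 50.7 and 52.0 CPM in KO DMSO libraries. In WT libraries it had 70.2 and 68.7 CPM under PB, 68.4 and 69.4 CPM under CITCO, and 59.4 and 54.8 CPM under DMSO. Both compounds stood above DMSO in both genotypes, and by about the same amount. In KO cells NFE2L2 rose by 0.23 with PB (adjusted p = 0.00917) and 0.25 with CITCO (0.0302), and in WT cells by 0.28 with PB (0.002) and 0.27 with CITCO (0.00767). The CITCO responses did not differ by the test (-0.02, adjusted p = 0.92), and transcript levels say nothing of NRF2 protein. Over the alternatives the NFE2L2 call was lost in 1 of 14 for WT PB, 4 of 12 for KO PB and 4 of 14 for WT CITCO. The KO CITCO call was lost without any of its 4 libraries (0.101 to 0.322; 0.0203 to 0.322 over the alternatives), the KO PB call without KO PB 1 (0.101), KO PB 2 (0.0706) or KO DMSO 1 (0.0887), and the WT CITCO call without WT CITCO 1 (0.0774) or WT CITCO 2 (0.101).

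Of 10 listed regulators 8 had a row. Under DMSO 4 of these 8 were called higher and 2 lower in KO than in WT cells at the deposited scaling. The shares of all loci were 28.3% and 29.4%. Among the drug responses, 1 regulator was called in each KO response and 2 in each WT response, all higher. Of all loci 3.87% (PB) and 0.386% (CITCO) were called higher in KO cells, and 2.66% and 1.18% in WT cells. The second regulator called in WT cells was SQSTM1, the p62 adaptor that competes for KEAP1, at 0.24 with PB (adjusted p = 0.00639) and 0.20 with CITCO (0.0438). These 2 calls were lost in 5 and 7 of 14 alternatives, PB without WT PB 2 (0.0889) or WT DMSO 1 (0.082) and CITCO without WT CITCO 1 (0.167), WT CITCO 2 (0.307) or WT DMSO 1 (0.378). KEAP1 was uncalled in all 4 responses (0.08 and -0.11 in KO, 0.23 and 0.23 in WT cells for PB and CITCO; adjusted p = 0.652, 0.594, 0.0591 and 0.109), and the WT differences passed without WT DMSO 2 (0.00167 and 0.00313).

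A list of 70 other NRF2-linked genes, of which 60 had a row, was counted in the same way. A place on this list does not show that NRF2 moved the gene. The part of CAR, which turns on drug-metabolising genes, or of other receptors in these responses was not tested. With PB, 26 rose and 2 fell in KO cells (3.87% of all loci tested rose and 3.09% fell), and 26 rose and 3 fell in WT cells (2.66% and 3.76%). With CITCO, 8 rose and 1 fell in KO cells (0.386% and 0.424%), and 20 rose and 2 fell in WT cells (1.18% and 1.02%). The list's median log2 response was 0.15 (PB) and 0.04 (CITCO) in KO cells, and 0.12 and 0.11 in WT cells. The largest group of responders were enzymes of quinone and carbonyl metabolism and export: of 15 measured, 11 rose with PB and 8 with CITCO in KO cells, and 11 rose with either compound in WT cells, where 1 fell with PB. NADPH-supplying enzymes rose in 4 of 5 with PB and 0 of 5 with CITCO in KO cells, and 4 of 5 with either compound in WT cells. Glutathione genes rose in 4 (PB) of 16 in KO cells and 5 (PB) and 1 (CITCO) in WT cells, and heme and iron genes in 4 (PB) and 0 (CITCO) of 7 in KO cells, and in 4 (PB) and 3 (CITCO, with 1 that fell) in WT cells. Of 14 genes of the thioredoxin and peroxiredoxin system, at most 1 rose and 1 fell in any response. At an unadjusted limma p under 0.05 the KO CITCO response had 1 of 5 NADPH-supplying, 2 of 16 glutathione, 2 of 14 thioredoxin and 3 of 7 heme and iron genes.

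AKR1B10, which reduces aldehydes and retinal, had the largest PB responses of the list, with means of 471 CPM in KO PB, 228 CPM in KO CITCO and 184 CPM in KO DMSO cells. It averaged 1147 CPM in WT PB, 1135 CPM in WT CITCO and 554 CPM in WT DMSO cells. It rose by 1.35 with PB and 0.31 with CITCO in KO cells, and by 1.048 and 1.03 in WT cells (adjusted p = 3.51e-15, 5.76e-05, 3.65e-13 and 6.13e-13). AKR1C2, a hydroxysteroid reductase, rose by 1.21 and 0.35 in KO and by 0.89 and 0.85 in WT cells with PB and CITCO. ABCC2, a canalicular exporter of conjugates, rose by 1.16 and 0.28 in KO and by 0.97 and 0.34 in WT cells with PB and CITCO. EPHX1, which hydrolyses epoxides, rose by 0.97 and 0.20 in KO and by 0.73 and 0.52 in WT cells, and PIR, an iron-binding nuclear protein, by 0.82 and 0.32 in KO and by 0.73 and 0.65 in WT cells. ALDH3A1, an aldehyde dehydrogenase that the aryl hydrocarbon receptor also controls, rose with CITCO by 1.16 (adjusted p = 1e-09) in KO cells and by 0.95 (adjusted p = 5.78e-09) in WT cells, the largest CITCO response of the list in KO cells. The KO CITCO calls of AKR1B10, AKR1C2, ABCC2 and EPHX1 were lost with a constant prior variance (0.0831, 0.0565, 0.143 and 0.223). That of EPHX1 was also lost without KO CITCO 1 (0.0852), KO CITCO 2 (0.0769) or KO DMSO 2 (0.0752), and that of PIR (adjusted p = 0.0392) without any of its 4 libraries (0.129 to 0.282).

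In the difference of CITCO responses 5 of the 60 genes were called, all 5 among the quinone and carbonyl genes and all lower in KO: AKR1B10 (-0.72, adjusted p = 5.07e-08), AKR1C2 (-0.50, 9.61e-06), EPHX1 (-0.33, 0.00167) and AKR1C1 (-0.29, 0.00181) were those of largest change. Of all loci 0.108% were called higher and 0.228% lower in KO for CITCO. In the difference of PB responses 4 were called, all higher in KO on the log2 scale: HRG (0.43, 0.000874), AKR1C2 (0.32, 0.00126), AKR1B10 (0.31, 0.00215) and EPHX1 (0.25, 0.0115). For PB the shares of all loci were 0.798% higher and 0.209% lower. HRG is a plasma glycoprotein that binds heme, listed with the heme and iron genes, and its link to NRF2 was not tested. By mean CPM, AKR1B10 rose with PB from 184 to 471 in KO and from 554 to 1147 in WT cells. AKR1C2 and EPHX1 also rose by less in CPM in KO than in WT cells, and HRG by more. Apart from AKR1B10 for CITCO, the calls named here were lost with a constant prior variance (adjusted p from 0.0741 to 0.266), and EPHX1 for PB also without KO PB 1 (0.108), KO PB 2 (0.0509) or KO DMSO 2 (0.0603). Between genotypes 9 of the 60 were higher and 33 lower in KO DMSO, 9 and 36 under PB and 5 and 37 under CITCO, all at the deposited scaling. Of all loci 28.3%, 29.4% and 29.3% were higher and 29.4%, 28.9% and 29.8% lower in that order. The changes were led under DMSO by GSTA1 (-1.66), AKR1B10 (-1.59), PTGR1 (-1.52) and IDH1 (-1.34); CAT (-1.36) and GSR (-1.29) were among the 4 leading under PB, and AKR1B10 stood at -2.31 under CITCO. Total scaling kept the calls of these named genes, which were picked for their large changes. The list's median difference was smaller, at -0.22 under DMSO, -0.23 under PB and -0.30 under CITCO. Total scaling moves the median of all loci towards KO by 0.25, 0.24 and 0.24 in that order. The counts of the 60 therefore hold for the deposited scaling alone. The summed hepatocyte markers given above were lower in the same KO libraries, and their part in these counts was not tested.

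**Figure D4:**
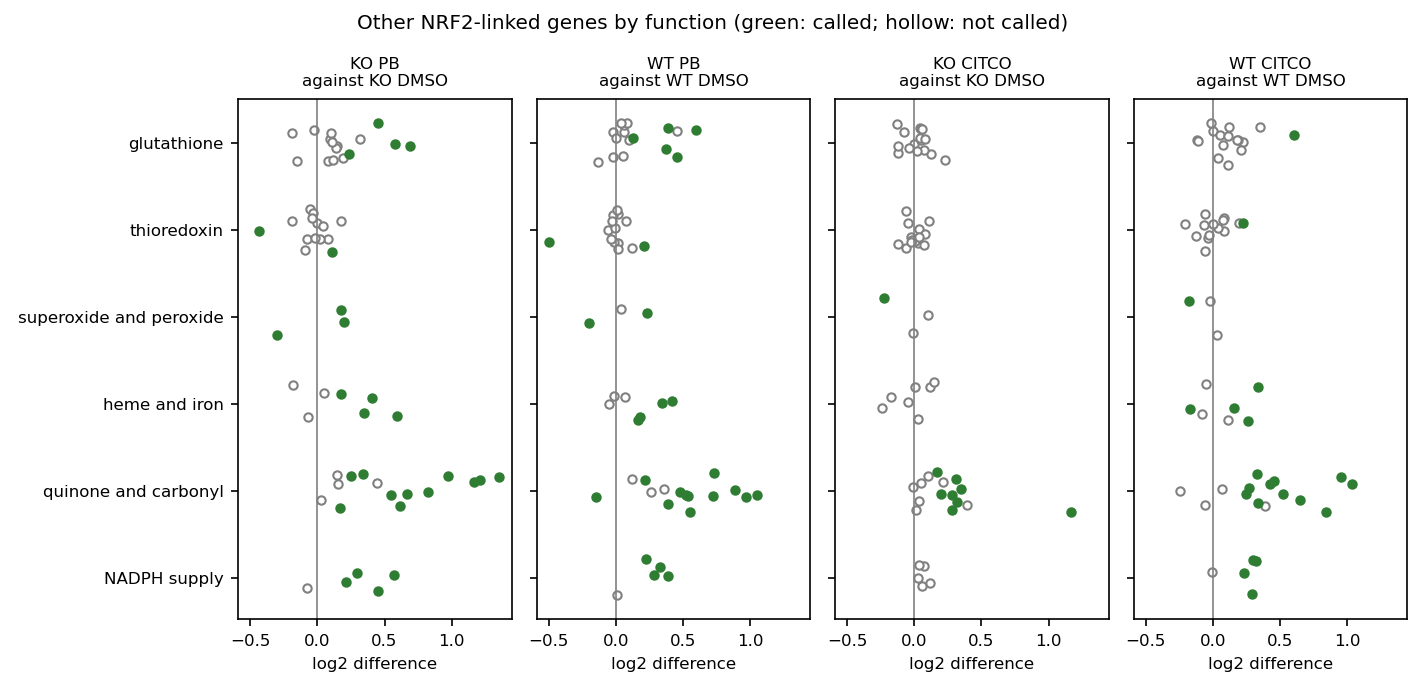
Log2 drug response of the 60 other NRF2-linked genes, 1 point each, by function, for KO PB, WT PB, KO CITCO and WT CITCO against DMSO of the same genotype; green points were called and hollow points not. The called genes in KO CITCO are 8 quinone and carbonyl genes, 1.16 at most (ALDH3A1), and 1 gene that fell.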

How the data were processed

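RNA sequencing libraries of KO and WT HepaRG cells were read from 1 deposited table. It holds a normalized signal that the authors call CPM, on a library size that carries a normalization factor, so the 12 columns sum to 900290 to 935052 in KO libraries and to more than that in WT libraries. Each value is a whole multiple of the value of 1 read (100% within 0.02 reads), which gave 49258123 to 66453415 reads per library. The number of reads sets the counting error, and duplicates differed by more than that. Per the submitters' processing notes, which give no roles, the tools were edgeR 2.12, Cuffdiff 2.1.1, Cufflinks 2.1.1, TopHat2 2.0.10 and Bowtie 1.0.0; the build behind the table is not given in the sources used here, so coordinates are those of RefSeq. The authors also deposited 7 comparison tables with a log2 fold change, a p-value and an FDR per locus.

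From the CPM, limma 3.58.1 (R 4.3.3, trended prior) was fitted to log2(CPM + 0.5) of all 12 libraries with 1 mean per group and 6 residual degrees of freedom, for the 15792 of 15822 loci that reached 1 CPM in 2 or more libraries. P-values were two-sided and adjusted by Benjamini-Hochberg over all loci in each of 9 comparisons, with calls under 0.05. The plan allowed for counts; because the values are a normalized signal, edgeR 4.0.16 and DESeq2 1.42.0 on recovered reads were alternatives, for the WT responses. The same steps were tested on simulated data. Other alternatives were the pseudocount, the filter, total scaling, a constant prior variance, only the libraries compared, a replicate block and each library left out. The 9 genes, the pathway, regulator and marker lists and the tests were chosen with earlier results of these data known. Named from the pathway list were up to 4 called genes of largest change per comparison with at least 5 CPM in a group, and for GPX2 and TRIM16L the 5 loci of highest r.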

Additional observations from a re-analysis of the deposited data

Results flagged for a closer look

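These results have in common that the drug response itself differed between KO and WT cells by limma's test of the difference over all loci. For PB the differences of log2 responses, KO minus WT, were 0.90 for CYP2B6, 0.43 for HRG, 0.32 for AKR1C2, 0.31 for AKR1B10 and 0.25 for EPHX1.

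For CITCO the differences were -2.78 for CYP2B6, -0.72 for AKR1B10, -0.52 for SRXN1, -0.51 for CDRT1, -0.50 for AKR1C2, -0.33 for EPHX1 and -0.29 for AKR1C1. CDRT1 was chosen after its values were seen, and its call was lost without KO CITCO 1 (adjusted p = 0.0652, within 0.00391 to 0.131 over the alternatives).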

How the results depend on the processing

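Across 168 differences of single genes and 2222 alternatives, with the counts of called genes left out, values kept their direction and side of the threshold in 2046, lost the call in 105, gained it in 11 and changed sign in 48, while 12 untested values moved beyond the spread of duplicates. Of the counts of called genes, WT CITCO (4) became 1 with only the libraries compared and 1 with a constant prior variance. KO CITCO (1) became 0 and the CITCO difference (1) became 0 with a constant prior variance. KO against WT under CITCO (7, with NQO1 counted although the filter fixes its direction) became 4 with total scaling. GPX2 and TRIM16L were not counted in these comparisons, and the cause was not tested. Total scaling turned KO against WT DMSO to 0.23 for SRXN1, 0.017 for TXNRD1, 0.00012 for GCLC, 0.11 for NFE2L2 and 0.14 for NR1I3, KO against WT PB to 0.13 for SRXN1, 0.19 for TXNRD1 and 0.012 for HMOX1, and KO against WT CITCO to 0.10 for GCLM. The CITCO difference of NQO1 was 0.044 with a pseudocount of 1 and 0.00081 with total scaling.

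Signs also turned, in uncalled values, with 1 library left out. The ranges were -0.46 to 0.29 (WT PB), -0.10 to 0.087 (KO PB), -0.20 to 0.55 (WT CITCO), -0.30 to 0.45 (PB difference) and -0.39 to 0.36 (CITCO difference) for NQO1. GCLC ranged over -0.10 to 0.016 (KO PB) and -0.026 to 0.094 (KO CITCO), GCLM over -0.026 to 0.089 (KO against WT DMSO) and -0.020 to 0.096 (PB difference), and SRXN1 over -0.074 to 0.0098 (KO against WT DMSO). HMOX1 ranged over -0.036 to 0.056 (KO CITCO), -0.055 to 0.12 (PB difference) and -0.084 to 0.0070 (CITCO difference), and SLC7A11 over -0.10 to 0.14 and -0.026 to 0.22 in these differences. The others were GPX3 at -0.054 to 0.0084 (WT PB) and -0.0099 to 0.10 (KO CITCO), CYP1A1 at -0.069 to 0.72 (KO PB), SLC3A2 at -0.095 to 0.011 (KO CITCO) and NFE2L2 at -0.082 to 0.033 (CITCO difference).

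Over all loci the calls moved by more than 1.5 times with a constant prior variance (612 for 1099 in KO PB, 20 for 128 in KO CITCO, 537 for 1014 in WT PB, 96 for 348 in WT CITCO, 25 for 159 and 6 for 53 in the PB and CITCO differences), with only the libraries compared (232 in KO CITCO, 242 in WT PB, 72 in WT CITCO, 84 in the PB difference), and with edgeR (554 in WT PB, 137 in WT CITCO) and DESeq2 (669 and 206). EdgeR and DESeq2 were not run for comparisons with KO libraries, and DESeq2 gave no adjusted p for NQO1 in WT PB. With 1 library left out the counts ranged over 522 to 671 in KO PB, 40 to 55 in KO CITCO, 811 to 1102 in WT PB, 109 to 992 in WT CITCO, 62 to 213 in the PB difference and 23 to 491 in the CITCO difference; the counts of 992 and 491 came without WT DMSO 2.

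Replicate numbers did not pair the libraries throughout, although some groups shared deviations. The r of deviations ran from -0.175 to 0.433 (median 0.0479), over 0.1 in 6 and under -0.1 in 2 of 15 group pairs. With the replicate as a block, 1 call was lost, SRXN1 in KO against WT PB (-0.12, adjusted p = 0.0513), and the counts over all loci were 1105 in KO PB, 117 in KO CITCO, 1003 in WT PB and 367 in WT CITCO.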

Other observations

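The authors' deposited tables hold 14161 loci and 8 of the 9 genes. Those headed KO PB against WT PB and KO CITCO against WT CITCO list log2 fold changes near the differences of responses and not near the differences of levels. For GPX2 the authors' deposited table lists -0.66 (PB) and -1.47 (CITCO), where the level was 3.68-fold and 2.098-fold higher in KO cells by mean CPM and the responses differed by -0.60 and -1.41. For SRXN1 the authors' deposited table lists -0.53 under CITCO (FDR 2.82e-06), and for SLC7A11 in KO CITCO 0.58 (FDR 9.07e-06).

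NQO1 had more reads in replicate 2 than in replicate 1 of every WT group: 20 and 9 under PB, 34 and 14 under CITCO, and 25 and 5 under DMSO.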
